A study of Mus musculus with 6 samples.

Results

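The cornified envelope is the crosslinked protein shell that replaces the plasma membrane of keratinocytes as they finish differentiation. Small proline-rich proteins, loricrin and involucrin are its precursors, transglutaminase 1 joins them by covalent bonds, the plakins envoplakin and periplakin form its scaffold under the membrane, and keratins 1 and 10 fill the suprabasal cell that it encloses. In squamous cell carcinoma these genes are read as marks of how far the tumor cells still follow the differentiation program of the epidermis.

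Here 10 genes of this shell were examined, out of 17204 genes with a value: Sprr1a, Sprr1b, Sprr3, Lor, Ivl, Tgm1, Krt1, Krt10, Ppl and Evpl. The set was built around Sprr1a, which was chosen by its measured difference between the cell lines, and which of the other values were known when their genes were added is not recorded. All 10 are therefore treated as chosen on this contrast, and their differences are given as a description with their error and without a p-value. The names are those paired with the Ensembl identifiers in the definition of the set.

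Both cell lines were SCC cells, derived from chemically induced skin tumors of FVB mice with the genotype K14CreER FAKflox/flox. SCC FAK-/- was a single FAK-null clone, obtained by activating the Cre recombinase with 4-hydroxytamoxifen, and SCC FAK-wt was the same clone after retroviral transduction with wild-type FAK, kept under hygromycin. The fak deletion, the Cre transgene, the FVB background, the carcinogen and the culture medium were thus shared, while the retrovirus and hygromycin went with SCC FAK-wt and cannot be told apart from FAK itself. RNA from 3 biological replicates of each line was hybridized to Affymetrix mouse arrays, and each gene has 1 log2 RMA value per array, in which 1 unit is a 2-fold difference of signal. The array medians lay between 5.90 and 5.97, arrays of the same line were 0.15 to 0.18 apart at the median gene, and 0 pairs of arrays held identical values. All cells came from 1 clone, so the spread between replicates is that of cultures and not of tumors, and in bulk RNA fewer cells with a transcript and less of it per cell cannot be told apart. Transcripts of fak and the basal and other-cell-type markers were not paired with identifiers and were not analysed here.

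Re-expression of FAK went with lower signals of Sprr1a and Lor, while the other 8 genes overlapped between the lines. Over all genes, 10.0% were lower and 11.5% higher without overlap of the groups, so the number of genes apart is only a description. Sprr1a, a small proline-rich precursor that is induced in stressed and wounded epithelium, was 14.3-fold lower, and Lor, whose product loricrin is the main protein of the finished envelope of the epidermis, was 3.02-fold lower. The crosslinking enzyme, both keratins, both plakins, involucrin and the remaining small proline-rich genes differed by -0.30 to 0.08 log2 units.

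Where these genes lie was not used to choose them. In the gene order of RefSeq (GRCm38.p6), 5 of the 10 are on chromosome 3 in the epidermal differentiation complex, a cluster that holds many genes of the outer epidermis. Lor comes first, then 12 other protein-coding genes, 10 of them of the Sprr2 family, then Sprr1b, Sprr3 and Sprr1a side by side, and Ivl after 1 further gene, Sprr4. Tgm1 is on chromosome 14, Krt1 on 15, Krt10 and Evpl on 11 and Ppl on 16. Both genes that were lower are in the complex, and so are 3 of the 8 that overlapped, among them the direct neighbor of Sprr1a.

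The 150 bases before the start of transcription are shown for both genes that were lower and, for contrast, for Sprr3, the neighbor of Sprr1a, and Ivl, the next member beyond it. They are RefSeq sequences of GRCm38.p6, all on the minus strand, written 5′ to 3′ and ending at the base before the start. Capitals mark the AP-1 motif TGANTCA and the TATA motif TATAAA. The windows are chr3:92485882-92486031 for Sprr1a, chr3:92083143-92083292 for Lor, chr3:92458721-92458870 for Sprr3 and chr3:92573736-92573885 for Ivl.
Sprr1a: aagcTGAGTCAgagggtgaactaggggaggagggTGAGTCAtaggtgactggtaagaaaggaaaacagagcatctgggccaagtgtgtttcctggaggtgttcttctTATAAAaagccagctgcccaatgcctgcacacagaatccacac
Lor: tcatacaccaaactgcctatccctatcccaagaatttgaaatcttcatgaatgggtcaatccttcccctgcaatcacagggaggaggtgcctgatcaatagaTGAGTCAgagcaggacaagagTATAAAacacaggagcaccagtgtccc
Sprr3: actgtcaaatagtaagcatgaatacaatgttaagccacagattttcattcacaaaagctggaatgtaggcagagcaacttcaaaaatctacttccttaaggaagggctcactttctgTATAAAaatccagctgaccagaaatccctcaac
Ivl: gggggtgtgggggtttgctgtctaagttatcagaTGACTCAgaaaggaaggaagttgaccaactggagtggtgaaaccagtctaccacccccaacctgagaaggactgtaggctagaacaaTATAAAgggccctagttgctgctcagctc

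AP-1 is a pair of Jun and Fos family proteins that act downstream of growth factor and stress signaling, and the motif was searched on both strands over the 250 bases before the start. The reference table held promoters of 7 of the genes (Sprr1a, Sprr1b, Sprr3, Lor, Ivl, Tgm1 and Krt10). Sprr1a carried 2 copies, beginning 146 and 116 bases before the start, Lor 1 copy at 48 bases, Ivl 1 copy at 116 bases and Sprr1b 1 copy, with the letters TGAATCA, at 111 bases. No copy was found in the windows of Sprr3, Tgm1 or Krt10. Of all 32851 promoters in the table, 6.75% held the motif and 0.338% held it more than once. The motif was thus in both genes that were lower and also in Ivl and Sprr1b, whose groups overlapped. Sprr1b gave little signal in either line, at percentile 7.81 of all genes in mean signal, so a decrease could hardly show there.

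The other motifs were counted in the same windows. TATAAA was found in 6 of the 7 (all but Tgm1, which has 2 listed start sites), against 12.4% of all promoters. The letters GGGNGTG, bound by Krüppel-like factors such as Klf4, were found in Ivl and Krt10 alone among the 7, against 26.1% of all promoters, and some of the 4 copies in Ivl overlap each other. The AP-2 motif GCCNNNGGC was found in 0 of the 7, against 13.7% of all promoters. Motifs are matches of letters and not measured binding sites, and whether any of them bears on the differences was not tested.

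Sprr1a (ENSMUSG00000050359) read 9.55, 9.53 and 9.54 on SCC FAK-/- replicates 1 to 3 and 6.70, 4.87 and 5.53 on SCC FAK-wt replicates 1 to 3. The SCC FAK-/- arrays were all high and almost equal, the SCC FAK-wt arrays were all lower and far apart, and the groups were separated by a gap of 2.83. The means were 9.54 ± 0.013 (SD, n = 3) and 5.70 ± 0.93 (SD, n = 3), a log2 difference of -3.84 with a standard error of 0.41. On the linear scale SCC FAK-wt was 14.3-fold lower, with a 95% interval from 7.39-fold to 27.7-fold. The standard error and interval come from the limma fit, in which both lines share a single variance, moderated over all genes. For Sprr1a the SDs of the lines are far apart, so the interval may be too narrow. An interval with separate variances was not computed. Over the 9 pairs of an SCC FAK-wt with an SCC FAK-/- array the difference ran from -4.68 to -2.83, so that even the mildest pair was past 2 log2 units. In signal brightness Sprr1a stood at percentile 89.9 of all genes in SCC FAK-/- and at percentile 47.3 in SCC FAK-wt.

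Lor (ENSMUSG00000043165) read 5.53, 5.60 and 5.15 in SCC FAK-/- and 3.58, 3.69 and 4.24 in SCC FAK-wt. Here too every SCC FAK-wt array was below every SCC FAK-/- array, with a smaller gap of 0.91. The means were 5.43 ± 0.24 and 3.84 ± 0.35 (SD, n = 3 each), and the difference of -1.59 had a standard error of 0.20. This is 3.02-fold lower in SCC FAK-wt, with a 95% interval from 2.16-fold to 4.20-fold, and Lor ranked 30 among the 17204 genes counted from the lowest difference. At percentile 44.0 of brightness in SCC FAK-/- and 22.7 in SCC FAK-wt, Lor was below the median gene in both lines and dim in SCC FAK-wt. RMA understates differences near the background.

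**Figure D1:**
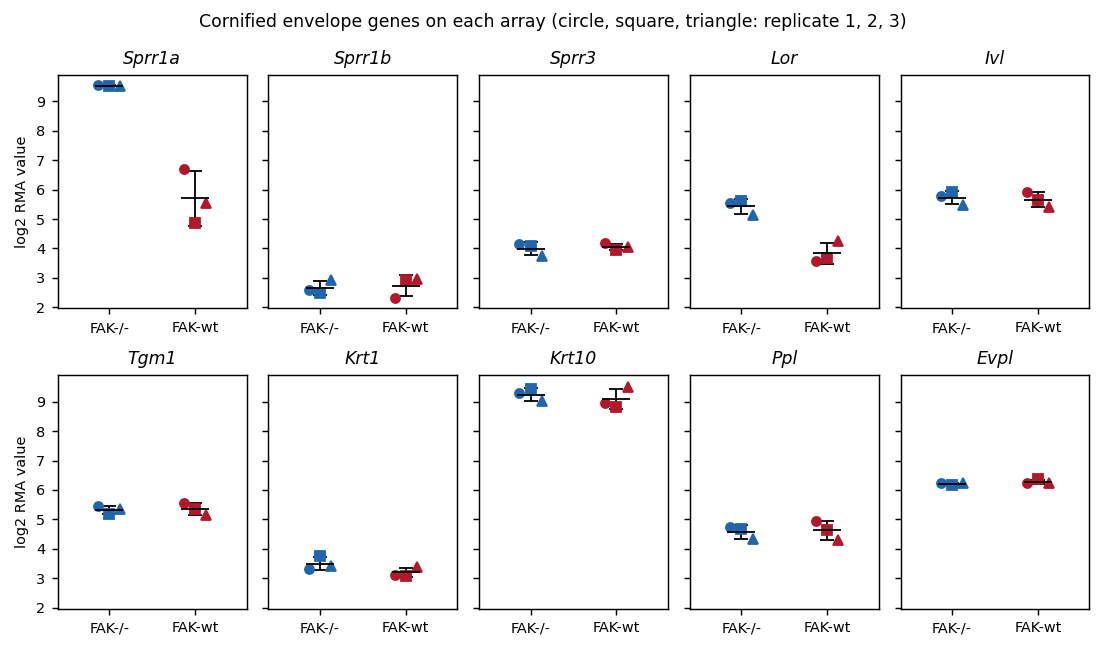
Log2 RMA value of the 10 genes on each of the 6 arrays, with SCC FAK-/- in blue and SCC FAK-wt in red, 1 symbol shape per replicate number, and bars for the mean and SD of 3 arrays. The groups are apart for Sprr1a (gap 2.83) and Lor (gap 0.91) and overlap for the other 8 genes.

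Sprr1b (ENSMUSG00000048455), the close paralog of Sprr1a, did not follow it. Its values were 2.58, 2.47 and 2.92 in SCC FAK-/- and 2.32, 2.91 and 2.97 in SCC FAK-wt, and the groups overlapped. The difference was 0.08 with a 95% interval from -0.40 to 0.56, at percentile 7.81 of brightness, so that Sprr1b gave little signal in either line. Whether probes of either gene respond to transcripts of near-identical family members was not tested.

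Sprr3 (ENSMUSG00000045539), a small proline-rich gene best known from the lining of the mouth and esophagus, read 4.16, 4.09 and 3.73 in SCC FAK-/- and 4.17, 3.94 and 4.04 in SCC FAK-wt. All 3 SCC FAK-wt arrays lay within or just above the range of SCC FAK-/-, and the difference of 0.05 had a 95% interval from -0.28 to 0.39. Sprr3 was dim, at percentile 25.3 of brightness, and RMA understates differences near the background. Ivl (ENSMUSG00000049128) encodes involucrin, an early scaffold protein of the envelope. It read 5.78, 5.93 and 5.48 in SCC FAK-/- and 5.92, 5.64 and 5.42 in SCC FAK-wt, a difference of -0.07 with a 95% interval from -0.47 to 0.33. Neither Sprr3, which lies beside Sprr1a, nor Ivl, which lies beyond Sprr4, thus shared the difference of Sprr1a. The interval of each stops well short of 1 log2 unit of signal, which for the dim Sprr3 may understate the difference in transcript. Sprr4 itself was not examined.

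Tgm1 (ENSMUSG00000022218), the membrane-bound transglutaminase that crosslinks these precursors, read 5.47, 5.20 and 5.34 in SCC FAK-/- and 5.56, 5.34 and 5.16 in SCC FAK-wt. Its difference of 0.02 was the smallest of the 10, with a 95% interval from -0.30 to 0.34. The groups overlapped for the enzyme, unlike for Sprr1a and Lor, whose products it joins.

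Krt1 and Krt10 encode the type II and type I keratins that pair in suprabasal epidermis. Krt1 (ENSMUSG00000046834) read 3.32, 3.74 and 3.40 in SCC FAK-/- and 3.10, 3.09 and 3.39 in SCC FAK-wt. It was the nearest of the 8 to a separation, with 8 of the 9 pairs of arrays lower in SCC FAK-wt, but the groups overlapped by 0.07, the difference was -0.30 and its 95% interval ran from -0.64 to 0.05. Krt10 (ENSMUSG00000019761) read 9.30, 9.42 and 9.01 in SCC FAK-/- and 8.97, 8.83 and 9.49 in SCC FAK-wt, where replicate 3 was the highest of the 6 arrays. The difference was -0.15 with a 95% interval from -0.61 to 0.31. The keratins sat at opposite ends of brightness, Krt1 at percentile 15.6 and Krt10 at percentile 87.0, which ranks the signals of their probes and not the amounts of their transcripts.

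The plakins form a dimer that anchors the envelope to keratin filaments and the membrane. Ppl (ENSMUSG00000039457), periplakin, read 4.75, 4.66 and 4.32 in SCC FAK-/- and 4.95, 4.63 and 4.29 in SCC FAK-wt, a difference of 0.05 with a 95% interval from -0.41 to 0.50. Ppl was dim, at percentile 33.1 of brightness. Evpl (ENSMUSG00000034282), envoplakin, read 6.22, 6.17 and 6.24 in SCC FAK-/- and 6.23, 6.36 and 6.24 in SCC FAK-wt. Its difference of 0.06 had the narrowest 95% interval of the set, from -0.16 to 0.29. For both scaffold genes the groups overlapped and the difference was smaller than the SD in SCC FAK-wt (0.33 for Ppl and 0.073 for Evpl). In SCC FAK-/- the SD was 0.23 for Ppl and 0.040 for Evpl, and the difference of Evpl exceeded its SD there.

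**Figure D2:**
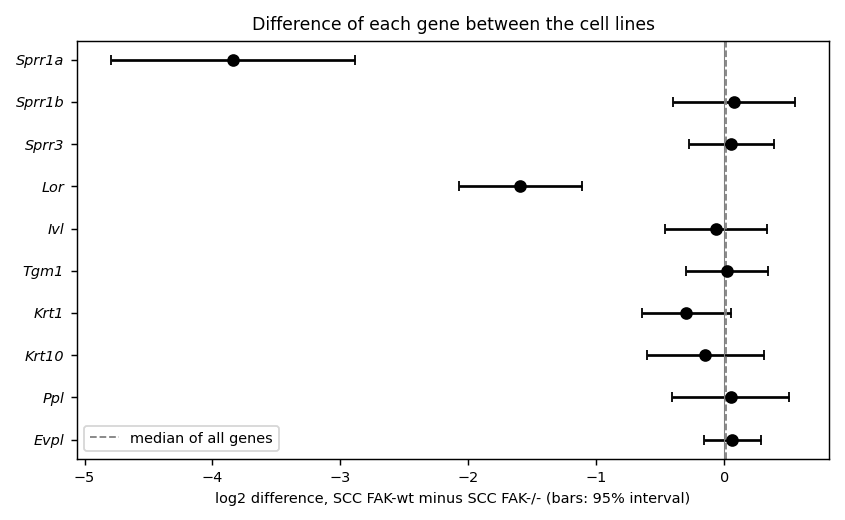
Log2 difference of each gene, SCC FAK-wt minus SCC FAK-/-, with its 95% interval from the fit over all genes and a dashed line at the median of all genes (0.02). The intervals of Sprr1a and Lor lie below 0 and those of the other 8 genes include 0.

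Over the 10 genes the median difference was -0.02, beside 0.02 over all genes of the table. The median size of a difference, taken without its sign, was 0.07 among the 10 and 0.14 among all genes. Differences of at least 1 log2 unit were found in 2 of the 10 and in 254 of all genes (1.48%). The large differences of the set were thus those of the 2 precursors, and of the other 8 genes 3 had a lower and 5 a higher mean in SCC FAK-wt.

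In the fit over all genes with limma, 2 of the 10 genes (Sprr1a and Lor) were called lower in SCC FAK-wt at a Benjamini-Hochberg adjusted p under 0.05, where 1.10% of all genes were called lower. Called higher were 0 of the 10, where 0.820% of all genes were, and the number higher was also 0 at an unadjusted p under 0.05. Groups without overlap were found in 2 of the 10 genes on the lower side and 0 on the higher side, beside 10.0% and 11.5% of all genes. Because this contrast chose the set, nothing is read from these counts. Without moderation of the variances 0 of the 10 were called. The call of Lor was also lost with the replicate number as a block and when SCC FAK-wt replicate 2, SCC FAK-/- replicate 1 or SCC FAK-/- replicate 2 was left out, and then 1 gene, Sprr1a, was called. The share of all genes called was not counted for these other fits, so the lost calls are not read as a result about the 10 genes.

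**Figure D3:**
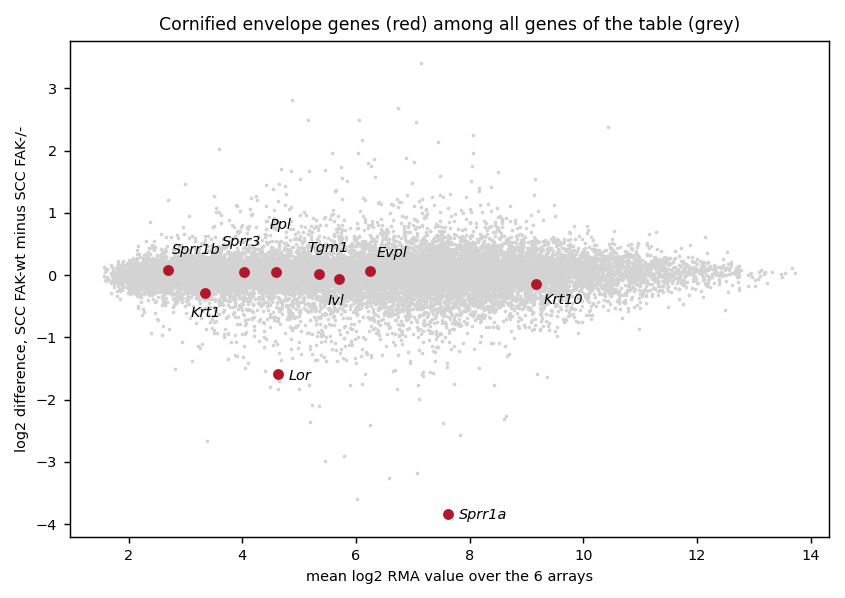
Mean log2 RMA value over the 6 arrays against the log2 difference, SCC FAK-wt minus SCC FAK-/-, for all 17204 genes (grey) and the 10 cornified envelope genes (red). Sprr1a lies at the lower edge of all genes, Lor below most genes of its brightness, and the other 8 within the band around 0.

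The spread of Sprr1a was unusual on both sides. Its SD over the SCC FAK-/- arrays was 0.013, at percentile 0.884 of all genes, and its SD over the SCC FAK-wt arrays was 0.93, at percentile 99.5. On the SCC FAK-wt arrays the deviation from the mean of the line was 1.00 for replicate 1, -0.83 for replicate 2 and -0.17 for replicate 3, so that the re-expressing cultures differed from each other by up to 1.83 log2 units. The difference from SCC FAK-/- was -4.34 without replicate 1 and -3.42 without replicate 2. The SD was larger in SCC FAK-wt for 8 of the 10 genes and for 53.5% of all genes. Apart from Sprr1a, the SDs of the set ran from 0.040 for Evpl in SCC FAK-/- to 0.36 for Sprr1b in SCC FAK-wt, beside medians over all genes of 0.145 in SCC FAK-/- and 0.155 in SCC FAK-wt.

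**Figure D4:**
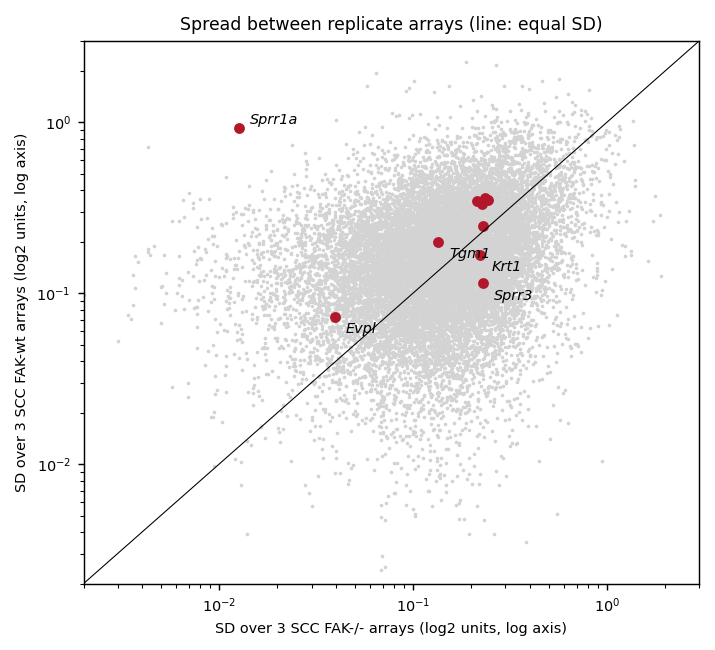
SD over the 3 SCC FAK-/- arrays against SD over the 3 SCC FAK-wt arrays, both in log2 units on log axes, for all genes (grey) and the 10 cornified envelope genes (red), with a line of equal SD. Sprr1a stands apart at 0.013 and 0.93, and Evpl has the lowest SD of the set in SCC FAK-wt (0.073) and the lowest after Sprr1a in SCC FAK-/- (0.040).

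Within a cell line the genes did not vary as 1 block. On SCC FAK-wt replicate 1, where Sprr1a was highest, Lor had a deviation from the mean of the line of -0.25. On SCC FAK-wt replicate 3 Lor was 0.40 and Krt10 0.39 above the mean of the line, while the deviations of Ppl, Ivl and Tgm1 were -0.34, -0.24 and -0.19. On SCC FAK-/- replicate 3, 5 of the 10 genes (Sprr3, Lor, Ivl, Krt10 and Ppl) had the lowest value of their line, beside 41.9% of all genes. Of the 45 pairs of genes, 3 lay on the same side of their line's mean on all 6 arrays (Sprr1a with Tgm1, Sprr3 with Ivl, and Lor with Krt10), and 2 lay on opposite sides on all 6 (Sprr1b with Sprr3 and with Ivl). These pairs were picked out after their values were seen, the points share the scaling of each array, and no test was made.

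**Figure D5:**
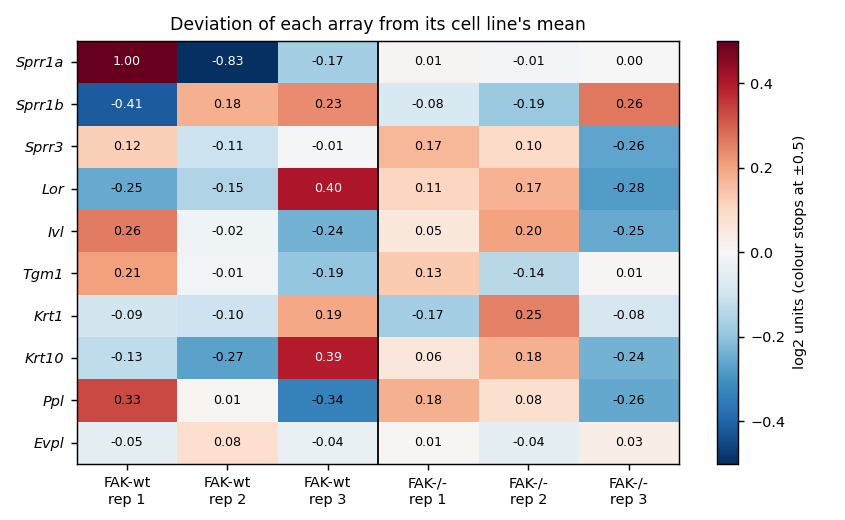
Deviation of each array from the mean of its cell line in log2 units, for the 10 genes in rows and the 6 arrays in columns, with red above and blue below the mean. Sprr1a varies most in SCC FAK-wt (1.00 to -0.83) and least in SCC FAK-/-, and Lor and Krt10 are both high on SCC FAK-wt replicate 3.

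The pattern of Sprr1a over the 6 arrays was also compared with that of every other gene with a range of at least 1 log2 unit, 2132 genes. Of the set only Sprr1a and Lor varied that much, over 4.68 and 2.02 log2 units. Pearson's r with Sprr1a reached 0.95 in 63 of them, and Lor, with r = 0.90, ranked 161. The most alike were ENSMUSG00000006782 (r = 0.99, log2 difference -0.79) and ENSMUSG00000022330 (r = 0.99, log2 difference -2.38), which are not paired with names here. Of the other 8 members the highest r was that of Krt1, 0.64, and the lowest that of Evpl, -0.70. With 2 lines of 3 arrays such an r mainly repeats the difference between the lines, and it is given as a description.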

How the data were processed

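RNA of 3 SCC FAK-wt and 3 SCC FAK-/- samples was profiled on Affymetrix GeneChip arrays after whole-transcriptome amplification of the RNA. The deposited log2 values were made by the authors, who summarised the probes by Ensembl gene identifier and applied RMA in the affy package. The log2 scale was taken from the range of the values, and the package version, probe mapping and background variant are not given in the sources used here. Array values carry no read depth, and 3 arrays per line limit the precision. The cell lines were compared over all 17204 genes with limma 3.58.1 (lmFit, eBayes) in R 4.3.3, with Benjamini-Hochberg adjustment over all genes. The fit was also run on simulated data. Each simulated gene had a single variance for both lines, so unequal SDs such as those of Sprr1a were not covered. P-values set a difference against the spread between these samples, with each gene's variance moderated over all genes. They do not cover other clones or tumors. The genes and lists were chosen with earlier results of these data known. Named were all members and the identifiers most alike to Sprr1a. The reference table paired 0 identifiers with symbols, so 2 planned results, the calls in further gene lists and in the epidermal differentiation complex, were not run, and neither fak nor marker genes were analysed here. Same-numbered arrays deviated from their group means with correlations of -0.034 to 0.028 across genes, and were not taken as pairs. Alternatives were 3 further scalings, other moderation, array weights, a filter on dim genes, the replicate block, the unadjusted threshold and leaving out each array.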

Additional observations from a re-analysis of the deposited data

How the results depend on the processing

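The difference of Sprr1a stayed between -3.85 and -3.71 under median centering, quantile normalization, cyclic loess and array weights, and between -4.34 and -3.42 with each array left out in turn. That of Lor stayed between -1.64 and -1.56 and between -1.79 and -1.47. The median difference of the 10 genes was -0.03 to 0.01 under the scalings and array weights and -0.14 to 0.0047 with an array left out, so its sign is not settled. The number of genes called lower at an adjusted p under 0.05, 2 in the comparison as reported, was 0 without moderation of the variances, 1 with a replicate block, and 1 to 2 with an array left out. It was 2 under the 3 scalings, array weights, trend and robust moderation and an unadjusted p under 0.01. It was also 2 with the filter on dim genes, which removed Sprr1b, Sprr3, Krt1 and Ppl from the test. Lor, at percentile 33.6 of the mean over all arrays but 22.7 in SCC FAK-wt, passed that filter only through SCC FAK-/-, so its call there is no support. The number called higher was 0 under each of these with limma, and 0 without moderation. The share of all genes called was not counted under these other settings, so nothing is read from these counts, whether smaller or unchanged. Sprr1a was the gene still called under the block and whenever the count was 1. It was chosen by this same difference, so that its call lasted is no support. The cause was not tested. Neither further gene lists nor the epidermal differentiation complex could be run, and dim genes such as Sprr1b and Krt1 are limited by signal over background, for which the values hold no measure.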
